A study of Homo sapiens with 24 samples.

Results

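The genes described here are 33 targets and partners of the transcription factor ATF4 that make, import or respond to a shortage of amino acids. They were taken by name from the 25680 genes listed in each of 3 tables, and every one of the 33 was found in each table. The list was chosen with earlier results of these data known, so its counts describe these genes and are no independent test. By function they comprised 6 serine and one-carbon enzymes, 6 other amino-acid enzymes, 8 amino-acid transporters, 7 transcriptional regulators, and 6 stress effectors and secreted or surface proteins. RNA had been sequenced from 3 established human acute myeloid leukaemia lines in 24 libraries, in 8 groups of 3. MV411 and MOLM13 carry an MLL (KMT2A) fusion together with an internal tandem duplication of the receptor kinase gene FLT3, whereas OCI-AML3 carries mutant NPM1 and has no MLL fusion. MI-503 is an inhibitor of the contact between menin and MLL proteins, and AC220 (quizartinib) is an inhibitor of the FLT3 kinase. In MV411 the groups were the combination (MI-503 at 2.5 µM over 3 days with AC220 at 3 nM over 24 h), AC220 alone at 3 nM over 24 h, MI-503 alone at 2.5 µM over 3 days, and the solvent DMSO. In MOLM13 and in OCI-AML3 they were MI-503 at 2.5 µM and DMSO, each over 4 days. OCI-AML3 was the only line without the fusion and each line is a single established culture, so genotype and line cannot be told apart. How the libraries of a group were kept separate in culture is not described, so p-values measure only the spread between these libraries.

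ATF4 is the effector of the integrated stress response. When uncharged transfer RNA, unfolded protein, a lack of haem or viral RNA activates an eIF2α kinase, general translation slows while the ATF4 message is translated more, and the protein binds composite C/EBP-ATF elements in front of genes for amino-acid synthesis, import and transfer-RNA charging. Growth factor signalling through mTORC1 also raises ATF4, and its targets feed growing cells with serine, glycine, asparagine, cystine and leucine. Because much of the control of ATF4 is at translation, its message is a poor guide to its protein, which was not measured.

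To show the element that ATF4 binds in front of such genes, promoter windows of 300 bases (250 before and 50 after a transcription start) were taken from RefSeq on GRCh38.p14, the assembly also called hg38. Of the 33 genes 26 had at least 1 window, 43 windows in all. The composite element was searched as TGATGNAA on either strand (TTNCATCA on the other). The end of the E-box CACGTG, searched beside it, can run into its start, but no such overlap lay in the windows of these genes. It occurred in 8 of the 43 windows (18.6%), 1 each of ASNS, ATF3, CHAC1, JDP2, SLC1A4, SLC1A5, SLC3A2 and SLC7A1, and in 1270 of all 35116 windows (3.62%). The E-box, a site of MYC and related factors, occurred in 5 of the 43 (11.6%), of which 2 were windows of ATF4 around the same site, and in 7.26% of all windows. Of the matches to the composite element 5 lay wholly before the start and are printed with their surroundings, 5′ to 3′ on the strand of the gene, with the match in capitals.
ASNS (chr7:97872433-97872512, minus strand, match 68 bases before the start): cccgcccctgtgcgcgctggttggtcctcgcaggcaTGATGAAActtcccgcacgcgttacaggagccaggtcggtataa
CHAC1 (chr15:40953226-40953305, plus strand, match 209 bases before the start, on the opposite strand): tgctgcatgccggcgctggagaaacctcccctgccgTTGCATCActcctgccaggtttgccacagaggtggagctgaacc
ATF3 (chr1:212565180-212565259, plus strand, match 191 bases before the start): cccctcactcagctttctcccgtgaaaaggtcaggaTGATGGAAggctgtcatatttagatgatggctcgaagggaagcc
JDP2 (chr14:75427970-75428021, plus strand, match 16 bases before the start): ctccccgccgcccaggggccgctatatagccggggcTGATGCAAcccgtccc
SLC1A5 (chr19:46784868-46784947, minus strand, match 97 bases before an alternative start): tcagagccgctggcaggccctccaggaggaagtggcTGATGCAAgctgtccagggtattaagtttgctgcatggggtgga
The ASNS match TGATGAAA and the CHAC1 match, read as TTGCATCA on the gene's strand, differ at the free position N that the pattern allows. Like that of SLC1A5, the starts used for ASNS and JDP2 lie inside the annotated span of the gene (chr7:97851677-97928441 and chr14:75426943-75474107). These are matches of letters and not measured binding sites, and no window was at hand here for PSPH, SHMT2, ALDH1L2, SLC7A11, NUPR1, PYCR1 and GPT2.

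The values given below are normalised reads, whole reads per gene divided by 1 factor per library computed within each line's table, so levels are comparable within a line and not between lines. Changes are differences in log2(normalised reads + 1) ± standard error with n = 3 libraries a group, which understates changes of genes with few reads, and a gene is said to rise or fall where limma with Benjamini-Hochberg adjustment over all tested genes gave an adjusted p under 0.05. Libraries held 23168887 to 27240357 reads on genes in MV411 and MOLM13 and 44364964 to 72994481 in OCI-AML3. The myeloid markers CD33, MPO, LYZ, SPI1, PTPRC and CSF1R all had reads in every group. Their summed level moved with treatment, at 8120 to 8310 RPM (reads per 1000000 reads on genes) with the combination, 3190 to 3440 with AC220, 7430 to 7810 with MI-503 and 1860 to 1930 with DMSO in MV411. In MOLM13 the sum was 1110 to 1240 RPM with MI-503 and 564 to 581 with DMSO, and in OCI-AML3 1640 to 1710 with MI-503 and 1770 to 1820 with DMSO. The part of this shift in the results was not tested. The 4 T and NK cell markers summed in MV411 to 88.2 to 97.4 RPM with the combination, 39.3 to 41.8 with AC220, 67.3 to 73.6 with MI-503 and 34.8 to 35.1 with DMSO. There CD3E was at 0 with MI-503 and with DMSO, where the other 3 had reads, and all 4 had reads with AC220 and the combination. Their sum was 29.8 to 33.5 RPM with MI-503 and 10.1 to 10.5 with DMSO in MOLM13. In OCI-AML3 it was 2.88 to 3.28 with MI-503 and 1.89 to 2.02 with DMSO. The 3 B cell markers summed to at most 5.27 RPM in any library. The 4 epithelial and fibroblast markers, among which EPCAM had no reads in OCI-AML3, summed to at most 8.83 RPM.

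Most of the 33 genes fell with each drug in MV411. With the combination 29 fell and 1 rose, against 40.1% and 39.3% of the 14421 genes tested that fell and rose in the same comparison. With AC220 32 fell and 1 rose (background 37.3% and 37.7%). With MI-503 32 fell and 0 rose (background 30.8% and 29.8%). The median change of the 33 genes was -1.59 with the combination, -1.63 with AC220 and -1.11 with MI-503, while the median over all tested genes lay within 0.02 of 0. A fall of at least 2-fold was seen in 24, 27 and 17 of the 33 with the combination, AC220 and MI-503, and in 13.4%, 10.9% and 4.64% of all tested genes. The libraries of a treatment lay wholly below the DMSO libraries for 30 of the 33 with the combination, 32 with AC220 and 32 with MI-503, and for 40.1%, 38.7% and 34.2% of all tested genes. The 3 comparisons share their DMSO libraries. In bulk RNA, fewer cells that express a gene and less RNA of it per cell cannot be told apart.

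**Figure D1:**
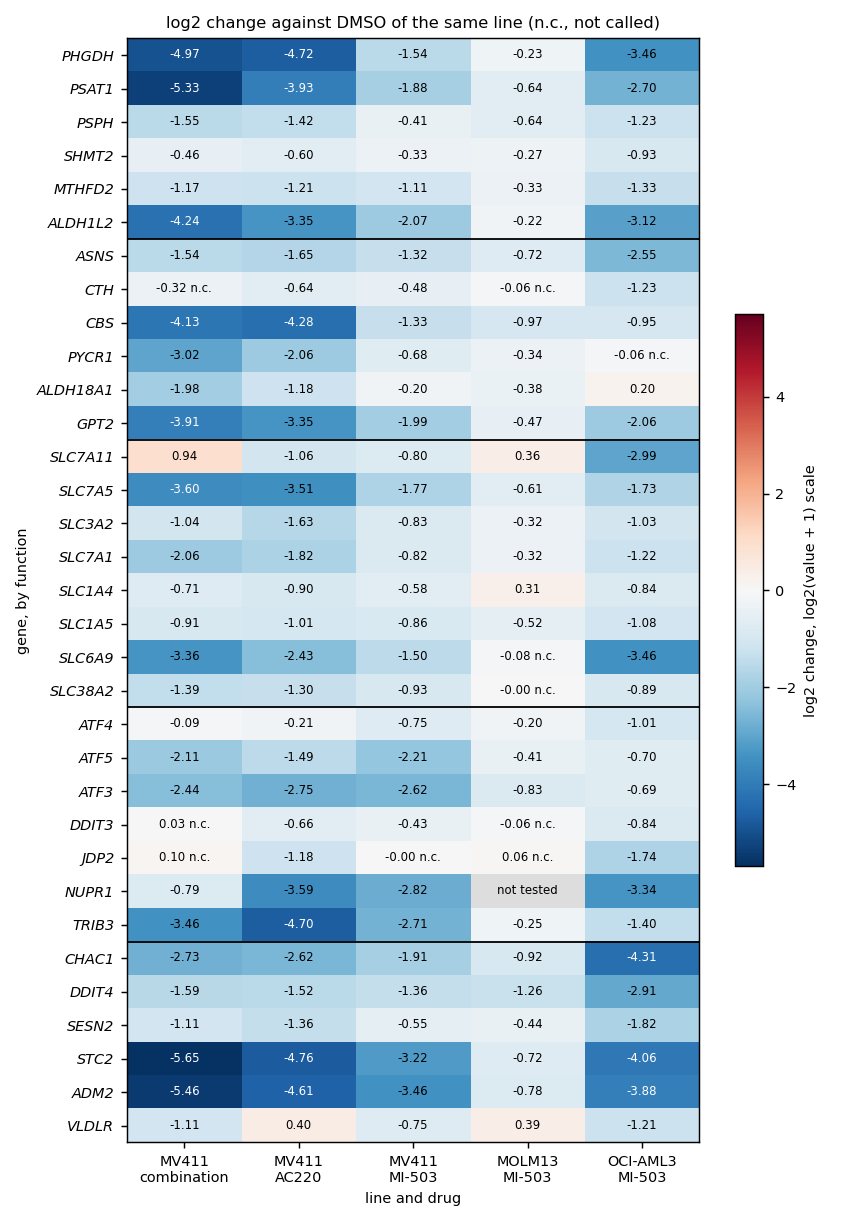
Heat map of the log2 change of each of the 33 genes (rows, by function) against DMSO of its own line, in 5 comparisons (columns); blue is lower and red higher than DMSO, and n.c. marks genes that did not pass the test. The MOLM13 column is the palest, and the strongest falls are those of STC2 (-5.65) and ADM2 (-5.46) with the combination.

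The 6 serine and one-carbon enzymes all fell with each treatment in MV411, with a median change of -2.90 for the combination, -2.38 for AC220 and -1.32 for MI-503. PHGDH (chromosome 1, 119711934 to 119744215 on hg38, RefSeq annotation) encodes the enzyme that commits a glycolytic intermediate to serine. It had 100.4, 85.5 and 88.2 normalised reads with the combination, 90.2, 94.5 and 149 with AC220, 990.5, 931 and 1046 with MI-503 and 2724, 2846 and 3072 with DMSO. The combination and AC220 libraries overlapped each other and lay far below those of MI-503, which in turn lay below DMSO. The change was -4.97 ± 0.12 with the combination (adjusted p = 1.15e-20), -4.72 ± 0.12 with AC220 (adjusted p = 3.28e-20) and -1.54 ± 0.12 with MI-503 (adjusted p = 1.6e-10). PSAT1 (chromosome 9, 78297125 to 78330093), the transaminase of the following step, had 153, 166 and 181 normalised reads with the combination, 404, 391 and 548 with AC220, 1852, 1902 and 1734 with MI-503 and 6654, 6858 and 6713 with DMSO. Its 4 groups did not overlap, and the combination left 0.0248 times the DMSO level (-5.33 ± 0.087, adjusted p = 1.16e-23).

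Among the other enzymes of serine and folate metabolism, ALDH1L2, which oxidises formyl-tetrahydrofolate in mitochondria, averaged 160.1 ± 23.5 normalised reads with the combination, 299 ± 43 with AC220, 721 ± 20.1 with MI-503 and 3029 ± 61.3 with DMSO (SD, n = 3 each). PSPH, the phosphatase that releases serine, changed by -1.55 ± 0.083 with the combination, -1.42 ± 0.083 with AC220 and -0.41 ± 0.083 with MI-503. MTHFD2, the mitochondrial folate dehydrogenase, averaged 4613 ± 42.5 normalised reads with the combination, 4495 ± 165 with AC220, 4816 ± 137 with MI-503 and 10372 ± 172 with DMSO. SHMT2, which moves a carbon from serine to folate, changed least in the group, by -0.46 ± 0.042 with the combination, -0.60 ± 0.042 with AC220 and -0.33 ± 0.042 with MI-503. The enzymes that make serine and ALDH1L2 were thus lowered further by AC220 than by MI-503, with differences between the 2 drugs of -3.18 for PHGDH, -2.04 for PSAT1, -1.28 for ALDH1L2 and -1.01 for PSPH.

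Among the 6 other amino-acid enzymes, 5 fell with the combination, 6 with AC220 and 6 with MI-503. CBS (chromosome 21, 43053191 to 43076873), which joins homocysteine and serine on the way to cysteine, had 28.2, 22.4 and 25.6 normalised reads with the combination, 23, 18.9 and 27.2 with AC220, 167, 186 and 196 with MI-503 and 457, 434 and 492 with DMSO. The combination and AC220 groups overlapped and were lower than MI-503, at changes from DMSO of -4.13 ± 0.14, -4.28 ± 0.14 and -1.33 ± 0.14. The annotation of hg38 holds a near-identical copy of CBS, so reads may be split between them and the level of CBS is uncertain. GPT2 (chromosome 16, 46884362 to 46931289), the mitochondrial alanine transaminase, had 194, 189 and 184 normalised reads with the combination, 284, 261 and 296 with AC220, 743, 694 and 724 with MI-503 and 2744, 2985 and 2849.8 with DMSO. Its groups were wholly apart in that order, and the combination changed it by -3.91 ± 0.065, adjusted p = 1.29e-23. ALDH18A1 (chromosome 10, 95605941 to 95656711), which starts proline synthesis from glutamate, had 782, 763 and 760.2 normalised reads with the combination, 1264, 1366 and 1369 with AC220, 2632, 2685 and 2572 with MI-503 and 3142, 2869 and 3085 with DMSO. MI-503 alone changed it by -0.20 ± 0.049, adjusted p = 0.000976, the smallest fall by MI-503 among the 32 that passed, while AC220 changed it by -1.18 ± 0.049 and the combination by -1.98 ± 0.049.

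PYCR1, which completes proline synthesis, changed by -3.02 ± 0.096 with the combination, -2.06 ± 0.096 with AC220 and -0.68 ± 0.096 with MI-503. ASNS, the asparagine synthetase whose promoter element is printed above, averaged 925 ± 61 normalised reads with the combination, 856 ± 9.16 with AC220, 1081 ± 20.9 with MI-503 and 2696 ± 61.4 with DMSO. It fell with each treatment (-1.54 ± 0.052, -1.65 ± 0.052 and -1.32 ± 0.052), less so with MI-503 alone than with AC220 (-0.34, adjusted p = 4.67e-06) or the combination (-0.23, adjusted p = 0.000524). CTH, which releases cysteine from cystathionine, was low in MV411 at 80.4 ± 2.36 normalised reads with the combination, 64.2 ± 7.49 with AC220, 73.1 ± 16.3 with MI-503 and 101 ± 8.46 with DMSO. It fell with AC220 (-0.64 ± 0.15, adjusted p = 0.000692) and with MI-503 (-0.48 ± 0.15, adjusted p = 0.0107), and the combination did not pass (-0.32 ± 0.15, adjusted p = 0.0653), although it passed with edgeR (-0.32), without the third DMSO library (-0.39) and with the 6 libraries of the pair alone (-0.32, adjusted p over the alternatives 0.0378 to 0.155). The MI-503 call was lost without the third MI-503 library (-0.29), and over the alternatives its adjusted p ranged from 0.00279 to 0.108.

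Of the 8 transporters 7 fell and 1 rose with the combination, and all 8 fell with AC220 and with MI-503. SLC7A5 (chromosome 16, 87830023 to 87869507), the light chain of the carrier for leucine and other large neutral amino acids, had 1483, 1463 and 1348 normalised reads with the combination, 1626, 1432 and 1525 with AC220, 5602, 4882 and 4871 with MI-503 and 16235, 18814 and 17166 with DMSO. AC220 with or without MI-503 left it at about the same level, below MI-503 alone, with changes from DMSO of -3.60 ± 0.06, -3.51 ± 0.06 and -1.77 ± 0.06. Reads of its near-identical pseudogenes cannot all be separated from it. SLC6A9 (chromosome 1, 43996483 to 44031462), a glycine carrier, had few reads, at 5.64, 11.2 and 10.3 normalised reads with the combination, 21.1, 8.95 and 27.2 with AC220, 35.1, 44.8 and 25.3 with MI-503 and 115, 78.3 and 106 with DMSO. The DMSO libraries were the highest, and the combination changed it by -3.36 ± 0.32, adjusted p = 8.99e-10, while AC220 and MI-503 libraries overlapped.

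SLC7A11 (chromosome 4, 138164097 to 138242349) encodes the light chain of the carrier that imports cystine in exchange for glutamate. It had 3112, 3443 and 3449 normalised reads with the combination, 873, 761 and 876 with AC220, 1012, 1033 and 956 with MI-503 and 1858, 1819 and 1562 with DMSO. Each drug alone put it below DMSO, with a change of -1.06 ± 0.066 for AC220 (adjusted p = 6.53e-13) and -0.80 ± 0.066 for MI-503 (adjusted p = 3.19e-10), yet the 3 combination libraries lay above all DMSO libraries (0.94 ± 0.066, adjusted p = 4.54e-12). It was the only one of the 33 genes that rose with the combination. Its antisense gene SLC7A11-AS1, whose annotated span overlaps it, moved alike, with 201 to 237 normalised reads with the combination, 34.8 to 59.5 with AC220, 65.2 to 77.2 with MI-503 and 126 to 136 with DMSO. Whether strand was used in counting is not given in the sources used here, so reads of the pair cannot be told apart.

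SLC1A4 (chromosome 2, 64988479 to 65023865), a carrier of serine and other small neutral amino acids, had 4160.4, 4167 and 4315 normalised reads with the combination, 3687, 3776 and 3644 with AC220, 4548, 4636 and 4655 with MI-503 and 6638, 6811 and 7283 with DMSO. All treated libraries were below all DMSO libraries, with changes of -0.71 ± 0.041, -0.90 ± 0.041 and -0.58 ± 0.041. SLC3A2, the heavy chain that SLC7A5 and SLC7A11 need at the cell surface, averaged 2881 ± 208 normalised reads with the combination, 1918 ± 22.5 with AC220, 3331 ± 24.4 with MI-503 and 5936 ± 196 with DMSO. SLC7A1, which carries arginine and lysine, changed by -2.06 ± 0.042 with the combination, -1.82 ± 0.042 with AC220 and -0.82 ± 0.042 with MI-503. The glutamine carrier SLC1A5 changed by -0.91 ± 0.047, -1.01 ± 0.047 and -0.86 ± 0.047 in the same order, and SLC38A2, a sodium-coupled carrier of neutral amino acids, by -1.39 ± 0.081, -1.30 ± 0.081 and -0.93 ± 0.081.

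**Figure D2:**
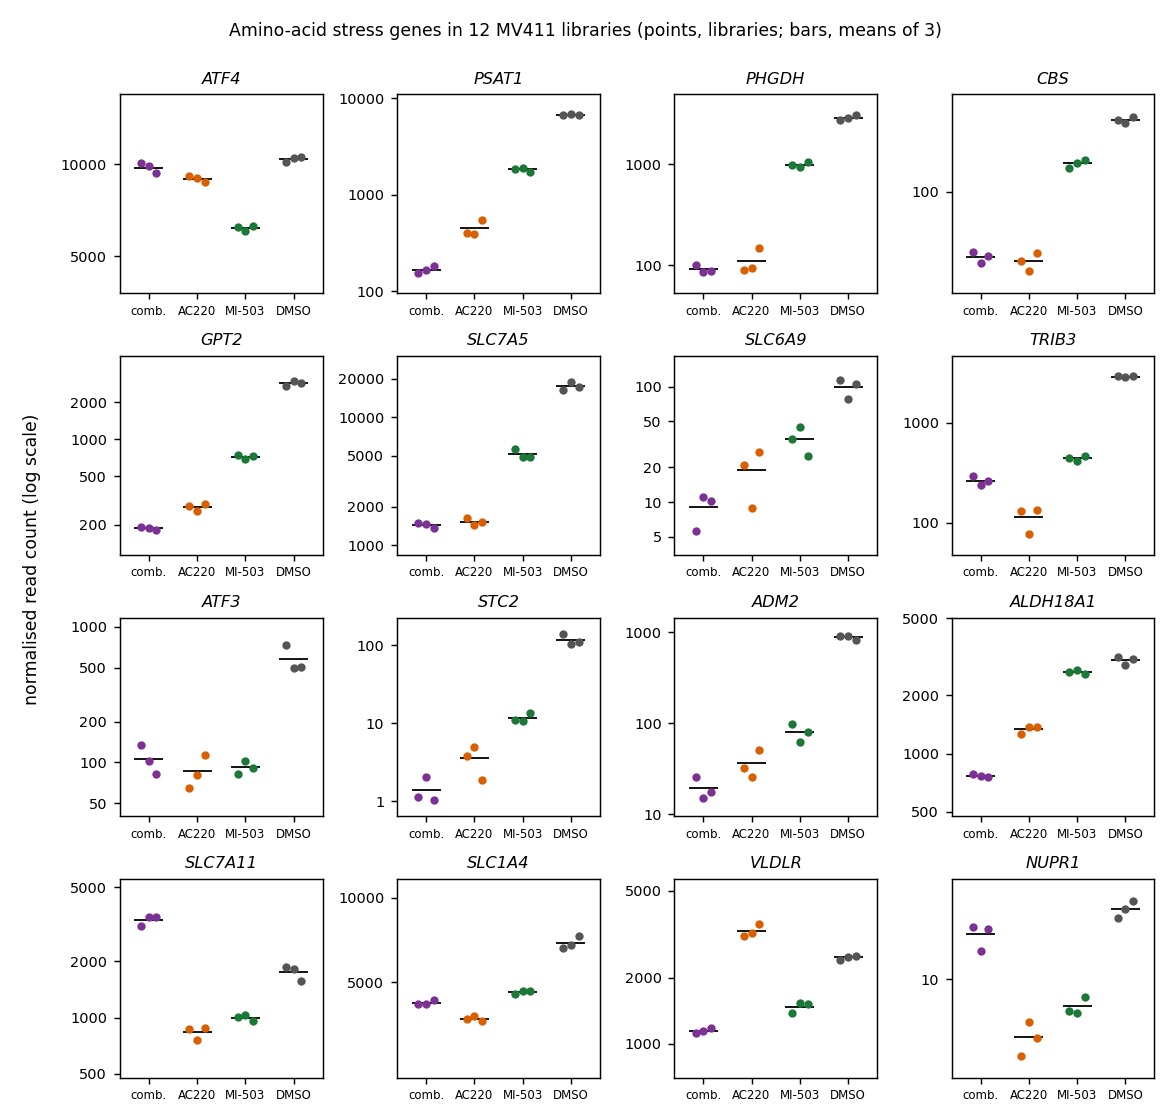
Normalised reads (log axes that differ between panels) of 16 of the genes in each MV411 library, with the combination, AC220, MI-503 and DMSO from left to right, and bars at the mean of 3. The combination libraries of SLC7A11 are the highest of the 4 groups, those of VLDLR are highest with AC220, and ATF4 is lowest with MI-503.

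The ATF4 message itself moved less than most of the genes its protein controls. ATF4 (chromosome 22, 39520559 to 39522686) had 10080.2, 9845 and 9338 normalised reads with the combination, 9135, 9041 and 8783 with AC220, 6214, 6069 and 6279 with MI-503 and 10155, 10496 and 10589.5 with DMSO. Only the MI-503 libraries stood far below DMSO, and those of the other treatments were close to it. The change was -0.09 ± 0.038 with the combination (adjusted p = 0.0279), -0.21 ± 0.038 with AC220 (adjusted p = 2.71e-05) and -0.75 ± 0.038 with MI-503 (adjusted p = 5.56e-14). The call for the combination was lost under 4 of 18 alternatives, without the second (-0.09) or the third DMSO library (-0.08), without the third combination library (-0.06) and with the 6 libraries of the pair alone (-0.09), and its adjusted p ranged from 0.00363 to 0.147. With AC220, 27 of the 33 genes fell at least 2-fold, as did 10.9% of all tested genes. The part of the ATF4 message in these falls was not tested.

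Of the 7 regulators 5 fell with the combination, all 7 with AC220 and 6 with MI-503. TRIB3 (chromosome 20, 380760 to 397559), a pseudokinase that ATF4 induces and that restrains ATF4 in turn, had 293, 240.1 and 259.6 normalised reads with the combination, 132, 76.6 and 135 with AC220, 449, 418 and 466 with MI-503 and 2937, 2875 and 2938 with DMSO. It was lowest with AC220 alone (-4.70 ± 0.13) and was higher with the combination (-3.46 ± 0.13), with no overlap between these groups. ATF3 (chromosome 1, 212565407 to 212620777), a stress-induced bZIP factor, had 135, 102 and 82.1 normalised reads with the combination, 64.3, 80.6 and 113 with AC220, 82.2, 103 and 90.5 with MI-503 and 729.9, 498 and 505 with DMSO. The 3 treated groups overlapped each other and lay below DMSO, with changes of -2.44 ± 0.18, -2.75 ± 0.18 and -2.62 ± 0.18. NUPR1 (chromosome 16, 28532708 to 28538974), a small nuclear stress protein, had few reads, at 30.4, 18.3 and 29.8 normalised reads with the combination, 1.92, 3.98 and 2.81 with AC220, 5.01, 4.87 and 6.82 with MI-503 and 37.1, 45.2 and 53.7 with DMSO. Behind these values lay 27, 18 and 29 reads with the combination, 2, 4 and 3 with AC220, 5, 5 and 7 with MI-503 and 39, 45 and 55 with DMSO. Its combination libraries stood well above those of either drug and below DMSO, where the change was -0.79 ± 0.31, adjusted p = 0.0252, a call lost under 3 of 17 alternatives (-0.78 without the second and -0.66 without the third DMSO library, -0.56 without the second combination library, adjusted p over all of them 0.00195 to 0.144).

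ATF5, a bZIP factor related to ATF4, averaged 1619.7 ± 131 normalised reads with the combination, 2496 ± 311 with AC220, 1511 ± 73 with MI-503 and 6967 ± 196 with DMSO, and was lowest in the groups that received MI-503. DDIT3 (CHOP), a factor of prolonged stress, averaged 1060.2 ± 27.3 normalised reads with the combination, 655 ± 24 with AC220, 771 ± 52.6 with MI-503 and 1038 ± 85.5 with DMSO. It fell with AC220 (-0.66 ± 0.065) and MI-503 (-0.43 ± 0.065), and the combination did not pass (0.03 ± 0.065, adjusted p = 0.642). JDP2, which pairs with JUN proteins, fell with AC220 alone (-1.18 ± 0.078, adjusted p = 1.8e-12), while neither the combination (0.10 ± 0.078, adjusted p = 0.251) nor MI-503 (-0.00 ± 0.078, adjusted p = 0.974) passed.

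All 6 stress effectors and secreted or surface proteins fell with the combination and with MI-503, and 5 fell and 1 rose with AC220. STC2 (chromosome 5, 173314723 to 173328414), a secreted glycoprotein, had 1.13, 2.04 and 1.03 normalised reads with the combination, 3.84, 4.97 and 1.88 with AC220, 11, 10.7 and 13.6 with MI-503 and 142, 104 and 109 with DMSO. It was nearly silent with the combination, where the libraries held 1, 2 and 1 reads, against 149, 104 and 112 with DMSO, and so the fitted change of -5.65 ± 0.34 rests on a handful of reads. ADM2 (chromosome 22, 50481543 to 50486437), a secreted peptide of the adrenomedullin family, had 25.9, 15.3 and 17.4 normalised reads with the combination, 32.6, 25.9 and 50.7 with AC220, 98.2, 62.4 and 79.8 with MI-503 and 908, 906 and 828 with DMSO. Every treated library lay far below DMSO, and the changes were -5.46 ± 0.21, -4.61 ± 0.21 and -3.46 ± 0.21. VLDLR (chromosome 9, 2621787 to 2660056), a lipoprotein receptor, had 1122, 1151 and 1179.8 normalised reads with the combination, 3119.8, 3202 and 3520.2 with AC220, 1382, 1532 and 1515 with MI-503 and 2405, 2503 and 2526 with DMSO. It rose with AC220 (0.40 ± 0.052, adjusted p = 2.46e-07) and fell with MI-503 (-0.75 ± 0.052, adjusted p = 1.64e-11) and with the combination (-1.11 ± 0.052, adjusted p = 1.96e-15), with no overlap among the 4 groups.

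CHAC1, which breaks down glutathione, averaged 29.1 ± 4.8 normalised reads with the combination, 31.2 ± 0.589 with AC220, 51.8 ± 6.97 with MI-503 and 197 ± 6.68 with DMSO. DDIT4, an inhibitor of mTORC1, changed by -1.59 ± 0.081 with the combination, -1.52 ± 0.081 with AC220 and -1.36 ± 0.081 with MI-503. SESN2, a leucine sensor that also restrains mTORC1, changed by -1.11 ± 0.064, -1.36 ± 0.064 and -0.55 ± 0.064 in that order.

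Against AC220 the combination raised 10 of the 33 genes and lowered 11 (background 27.4% higher and 28.1% lower), and 12 did not pass. These shares of the 33 genes are close to those of all tested genes, so the counts are no result about the genes as a group. Of the enzymes 5 were lowered, with changes of -1.41 ± 0.087 for PSAT1, -0.97 ± 0.096 for PYCR1, -0.90 ± 0.09 for ALDH1L2, -0.79 ± 0.049 for ALDH18A1 and -0.56 ± 0.065 for GPT2. VLDLR had the largest fall (-1.51 ± 0.052, adjusted p = 6.07e-17). Among the regulators 5 of 7 rose, NUPR1 by 2.80 ± 0.31, JDP2 by 1.28 ± 0.078, TRIB3 by 1.24 ± 0.13, DDIT3 by 0.69 ± 0.065 and ATF4 by 0.12 ± 0.038, and ATF5 fell (-0.62 ± 0.067). The ATF4 call in this comparison was lost with equal library totals (0.07) and without the third AC220 library (0.10, adjusted p over the alternatives 0.00274 to 0.081). Among the transporters SLC7A11 (1.99 ± 0.066), its partner SLC3A2 (0.58 ± 0.047) and SLC1A4 (0.19 ± 0.041) rose, and SLC7A1 (-0.24 ± 0.042) and SLC6A9 (-0.92 ± 0.32) fell. SESN2 (0.25 ± 0.064) and SHMT2 (0.15 ± 0.042) rose, and ADM2 (-0.84 ± 0.21) and STC2 (-0.89 ± 0.34) fell. The STC2 call was lost under 7 of 17 alternatives (adjusted p 0.00587 to 0.195) and the SLC6A9 call under 5 of 18 (adjusted p 0.000398 to 0.123), among them the removal of the first or the second AC220 library or the first or the third combination library for STC2 (-0.82 to -0.66) and of the first or the third AC220 or the first combination library for SLC6A9 (-0.79 to -0.61).

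The genes that did not pass between the combination and AC220 included several of the most lowered. Their differences were -0.25 ± 0.12 for PHGDH, -0.13 ± 0.083 for PSPH, 0.04 ± 0.039 for MTHFD2, 0.11 ± 0.052 for ASNS, 0.33 ± 0.15 for CTH and 0.14 ± 0.14 for CBS. For the remaining ones they were -0.09 ± 0.06 for SLC7A5, 0.09 ± 0.047 for SLC1A5, -0.09 ± 0.081 for SLC38A2, 0.31 ± 0.18 for ATF3, -0.11 ± 0.16 for CHAC1 and -0.07 ± 0.081 for DDIT4. Some passed once a library was left out, PHGDH without the first (-0.38) or the second AC220 library (-0.35) or the first combination library (-0.32) and ATF3 without the third AC220 (0.53) or the third combination library (0.48). ASNS passed without the first combination library (0.16), and SLC1A5 (0.14) and SLC38A2 (-0.21) without the third.

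Adding AC220 to MI-503 lowered 23 of the 33 genes and raised 4 (background 33.6% lower and 34.9% higher). The largest falls were PSAT1 (-3.45 ± 0.087), PHGDH (-3.42 ± 0.12), CBS (-2.80 ± 0.14), STC2 (-2.43 ± 0.34) and PYCR1 (-2.34 ± 0.096). The genes that rose were NUPR1 (2.03 ± 0.31), SLC7A11 (1.74 ± 0.066), ATF4 (0.66 ± 0.038) and DDIT3 (0.46 ± 0.065). Those that did not pass were MTHFD2 (-0.06 ± 0.039), CTH (0.16 ± 0.15), SLC1A5 (-0.05 ± 0.047), ATF5 (0.10 ± 0.067), ATF3 (0.18 ± 0.18) and JDP2 (0.10 ± 0.078). SLC1A5 passed without the first combination library (-0.11) and ATF5 without the third (0.16). Small falls of DDIT4 (-0.22 ± 0.081) and SHMT2 (-0.13 ± 0.042) lost their calls without the third combination library (-0.11 and -0.09), DDIT4 also without the third MI-503 library (-0.20, adjusted p over the alternatives 0.00228 to 0.186 and 0.00108 to 0.0548).

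Set directly against MI-503, AC220 left 27 of the 33 genes lower and 3 higher (background 34.5% and 33.8%), with exposures of 24 h and 3 days that were not matched. The higher ones were VLDLR (1.15 ± 0.052), ATF5 (0.72 ± 0.067) and ATF4 (0.54 ± 0.038). PHGDH (-3.18 ± 0.12) and CBS (-2.95 ± 0.14) differed most in the other direction. CTH (-0.17 ± 0.15), ATF3 (-0.13 ± 0.18) and DDIT4 (-0.15 ± 0.081) did not pass. The calls of MTHFD2 (-0.10 ± 0.039), NUPR1 (-0.77 ± 0.31) and SLC6A9 (-0.94 ± 0.32) were lost under 5 of 18, 6 of 16 and 3 of 18 alternatives, with adjusted p of 0.011 to 0.111, 0.0155 to 0.194 and 0.00192 to 0.137. For MTHFD2 these include the removal of the first or the second MI-503 and of the second or the third AC220 library (-0.09 to -0.08), for NUPR1 of the third MI-503 and of the first or the third AC220 library (-0.77 to -0.58), and for SLC6A9 of the second MI-503 (-0.75) or the second AC220 library (-0.49). CTH passed without the third MI-503 library (-0.35).

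The effect of the combination on the log2 scale was smaller than the sum of the single effects for most of the genes. The interaction (the change with the combination less the summed changes with each drug alone) was positive and called for 28 of the 33 and negative for 2, against a background of 20.9% and 21.6%, with a median of 1.17 among the 33. For NUPR1 and STC2 the sum of the single changes would have put the combination below 0 on the log2(normalised reads + 1) scale (at -0.88 and -1.09), which no value can reach, so their interactions had to be positive. Among the other 31 genes 26 interactions were positive and 2 negative, with a median of 1.15. Among these 31 it was largest for TRIB3 (3.95 ± 0.19, adjusted p = 1.04e-13) and ATF3 (2.93 ± 0.26, adjusted p = 2.73e-09), and the values bounded by the scale were 5.61 ± 0.44 for NUPR1 and 2.33 ± 0.48 for STC2. For TRIB3 the single changes of -4.70 and -2.71 would have summed to -7.41, and the combination gave -3.46. For SLC7A11 the interaction of 2.79 ± 0.094 turned the direction, since the summed single changes of -1.86 stand against 0.94 with the combination. ADM2 (2.62 ± 0.29), CHAC1 (1.81 ± 0.22), SLC7A5 (1.67 ± 0.085) and ATF5 (1.59 ± 0.095) followed. The STC2 call was lost with edgeR and DESeq2 (2.06 and 2.00, adjusted p over the alternatives 5.29e-08 to 0.0937).

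The 6 regulators other than NUPR1 had a called positive interaction (ATF4 0.87 ± 0.054, DDIT3 1.12 ± 0.091, JDP2 1.28 ± 0.11), as did 7 of 8 transporters and 5 of 6 serine and one-carbon enzymes. The called positive interactions of PSAT1 (0.48 ± 0.12, adjusted p = 0.00327) and SHMT2 (0.47 ± 0.059) were the smallest, and PSPH (0.28 ± 0.12, adjusted p = 0.0561), PYCR1 (-0.29 ± 0.14, adjusted p = 0.0929) and SLC6A9 (0.58 ± 0.45, adjusted p = 0.319) did not pass. PSPH passed without the second AC220 (0.34) or the third combination library (0.32), and PYCR1 without the first combination library (-0.41). The 2 genes with a negative interaction were ALDH18A1 (-0.59 ± 0.069, adjusted p = 3.04e-07) and VLDLR (-0.76 ± 0.074, adjusted p = 1.46e-08). ALDH18A1 fell by 1.98 with the combination, against a sum of the single changes of -1.39, and VLDLR by 1.11, against a sum of -0.34.

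**Figure D3:**
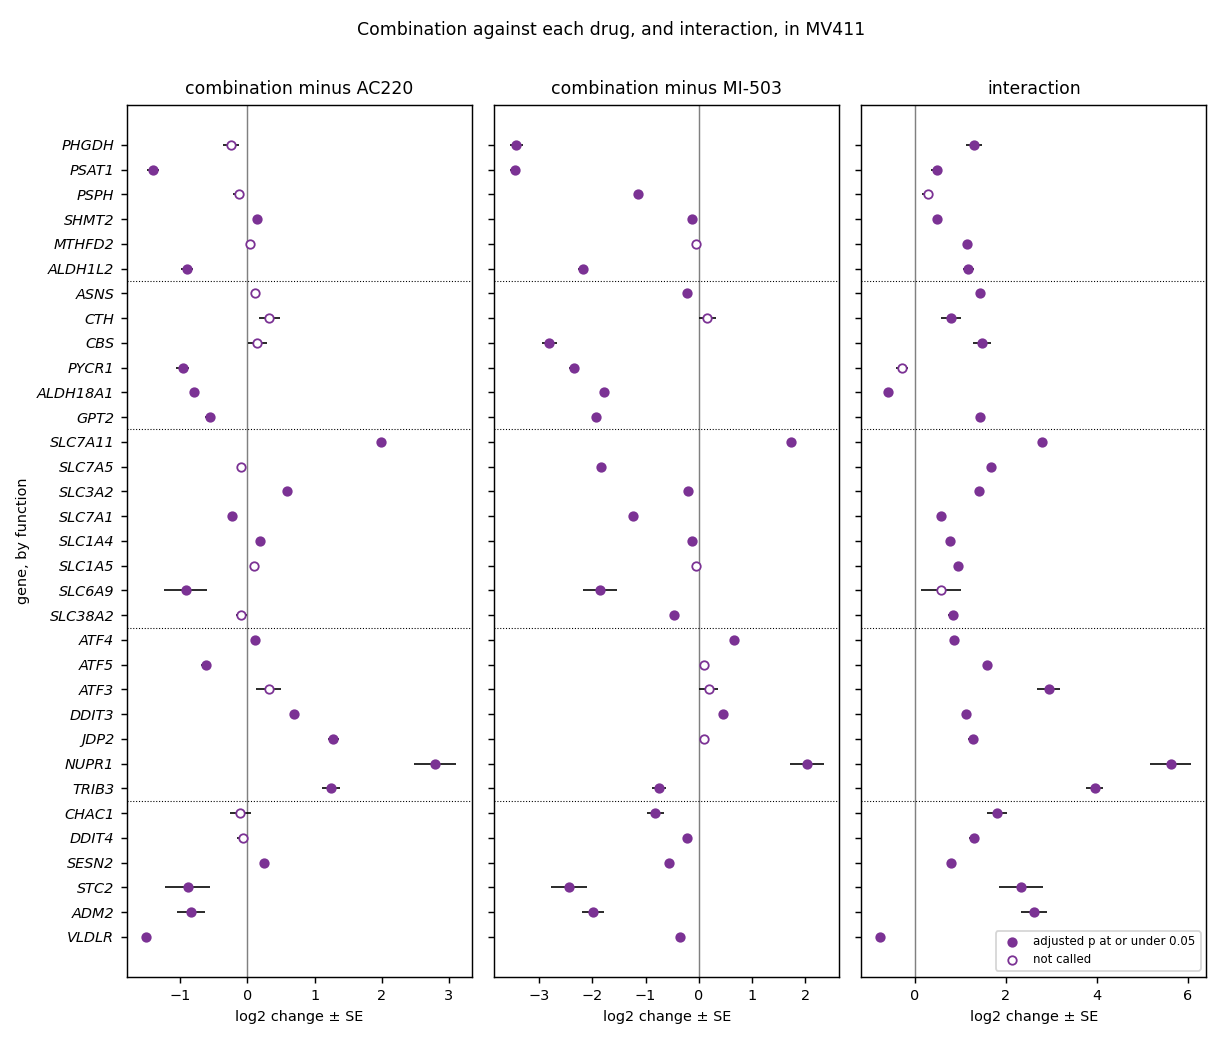
Log2 change ± standard error of each of the 33 genes (rows, by function) for the combination minus AC220, the combination minus MI-503 and the interaction in MV411 (n = 3 libraries a group); filled points passed the test. Points of the interaction panel lie right of 0 for all genes but PYCR1 (-0.29), ALDH18A1 (-0.59) and VLDLR (-0.76).

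In MOLM13 most of the genes fell as well, but by less. With MI-503 24 of the 32 genes tested fell and 3 rose (background 29.9% and 29.9% of 13391 genes), with a median of -0.34. With the factors used here only DDIT4 fell at least 2-fold (-1.26 ± 0.03, adjusted p = 2.34e-15), as did 1.56% of all tested genes. The factors in the deposited MOLM13 table put the whole of the MI-503 group 0.53 lower on the log2 scale than the factors used here, and on that scale 30 of the 32 tested fell and none rose, with a median of -0.87, as did 76.8% of all tested genes, with a median of -0.54, and 6.74% rose. On that scale 8.07% of all calls were rises, against 50.0% here. More of the 32 genes fell at least 2-fold on it, among them DDIT4 (-1.79), CBS (-1.51) and CHAC1 (-1.45). The share of all tested genes that did so on the deposited scale was not counted. NUPR1, at 9.03, 14.2 and 6.85 normalised reads with MI-503 and 4.64, 5.89 and 2.02 with DMSO, was under the minimum for a test.

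The 6 serine and one-carbon enzymes all fell in MOLM13. PSAT1 had 5777, 6418 and 6355 normalised reads with MI-503 and 9529, 9790.2 and 9659 with DMSO (-0.64 ± 0.035, adjusted p = 7.13e-11). For PHGDH the values were 4597, 4586 and 4761 with MI-503 and 5412, 5400.4 and 5547 with DMSO (-0.23 ± 0.028). The groups were apart for both, and PSPH (-0.64 ± 0.043), MTHFD2 (-0.33 ± 0.026), SHMT2 (-0.27 ± 0.029) and ALDH1L2 (-0.22 ± 0.035) also fell. Of the other enzymes CBS had 544.6, 460.2 and 502.8 normalised reads with MI-503 and 972, 992 and 996 with DMSO (-0.97 ± 0.058), and GPT2 had 1797, 1834 and 1912 with MI-503 and 2590.3, 2528 and 2547 with DMSO (-0.47 ± 0.034). ALDH18A1 had 4062, 3901 and 3916 normalised reads with MI-503 and 5196, 5115 and 5141 with DMSO (-0.38 ± 0.028). These groups did not overlap, and ASNS (-0.72 ± 0.039) and PYCR1 (-0.34 ± 0.052) fell as well. CTH did not pass (-0.06 ± 0.079, adjusted p = 0.539), but fell with the deposited factors (-0.59, adjusted p = 1.98e-06).

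Of the transporters SLC7A5 had 5434, 5298 and 5419 normalised reads with MI-503 and 8558, 7979 and 8064 with DMSO in MOLM13 (-0.61 ± 0.03). SLC6A9 had 27.1, 22.9 and 27.4 with MI-503 and 27.9, 27.5 and 26.2 with DMSO. It did not pass (-0.08 ± 0.20, adjusted p = 0.767), but fell with the deposited factors (-0.59, adjusted p = 0.025). SLC7A11 had 2404, 3149 and 3064 normalised reads with MI-503 and 2279, 2406 and 1998 with DMSO, and its groups overlapped. It was called higher (0.36 ± 0.079, adjusted p = 0.000844), but the change was -0.17 with the deposited factors (adjusted p = 0.0788), and the call was also lost without a variance trend (adjusted p over the alternatives 3.45e-08 to 0.0788). SLC1A4 had 3924, 3924 and 4059 normalised reads with MI-503 and 3227, 3115 and 3288 with DMSO, a rise of 0.31 ± 0.031. With the deposited factors it was called lower instead (-0.23, adjusted p = 0.0179). SLC1A5 (-0.52 ± 0.035), SLC3A2 (-0.32 ± 0.033) and SLC7A1 (-0.32 ± 0.029) fell. SLC38A2 did not pass (-0.00 ± 0.031, adjusted p = 0.95), but fell with the deposited factors (-0.53, adjusted p = 5.68e-09).

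ATF4 had 10599.7, 10749 and 10936 normalised reads with MI-503 and 12306, 12421 and 12373 with DMSO in MOLM13, a small fall without overlap (-0.20 ± 0.024). ATF3 had 179.5, 194 and 174 with MI-503 and 306, 311 and 358 with DMSO (-0.83 ± 0.086). For TRIB3 the values were 821, 797 and 858 with MI-503 and 1005, 961 and 976 with DMSO (-0.25 ± 0.045). ATF5 fell (-0.41 ± 0.055), and DDIT3 (-0.06 ± 0.052, adjusted p = 0.312) and JDP2 (0.06 ± 0.084, adjusted p = 0.577) did not pass. With the deposited factors DDIT3 (-0.59, adjusted p = 9.66e-09) and JDP2 (-0.47, adjusted p = 2.83e-05) were called lower. STC2 had 321, 329 and 341 normalised reads with MI-503 and 527, 585 and 523 with DMSO (-0.72 ± 0.064), and ADM2 had 85.2, 99.5 and 98.8 with MI-503 and 173, 163 and 151 with DMSO (-0.78 ± 0.11). CHAC1 (-0.92 ± 0.15) and SESN2 (-0.44 ± 0.048) fell. VLDLR had 2325, 2352 and 2322 normalised reads with MI-503 and 1766, 1825 and 1751 with DMSO, a rise of 0.39 ± 0.033 that was -0.14 with the deposited factors (adjusted p = 0.153, over the alternatives 3.35e-17 to 0.153).

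In OCI-AML3, the line without an MLL fusion, MI-503 lowered 31 of the 33 genes and raised 1 (background 32.8% and 32.9% of 15682 genes). The median change was -1.33, and 24 genes fell at least 2-fold, as did 3.28% of all tested genes. The MI-503 libraries lay wholly below DMSO for 32 of the 33 genes and above it for 1, against 34.8% and 34.9% of all tested genes. The deposited factors put the MI-503 group 0.16 lower on the log2 scale, and with them 31 of the 33 genes fell and none rose, with a median of -1.49, while 6.82% of all tested genes fell and 3.85% rose. On that scale 36.1% of all calls were rises, against 50.1% here. NUPR1, at 5.24, 5.2 and 2.83 normalised reads with MI-503 and 66.6, 49.9 and 43.7 with DMSO, entered the test only through its DMSO libraries and so had to differ downward (-3.34 ± 0.29); it is 1 of the 31 that fell and of the 24 that fell at least 2-fold.

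The stress effectors fell most, with a median of -3.39. CHAC1 averaged 176 ± 34.9 normalised reads with MI-503 and 3474 ± 102 with DMSO (-4.31 ± 0.11, adjusted p = 1.16e-11). STC2 had 200.4, 213 and 224 normalised reads with MI-503 and 3659.8, 3587 and 3407 with DMSO (-4.06 ± 0.053, adjusted p = 1.13e-13). ADM2 had 89, 94.6 and 93.5 with MI-503 and 1436, 1352 and 1329 with DMSO (-3.88 ± 0.064). Their libraries lay far apart, and DDIT4 (-2.91 ± 0.042) and SESN2 (-1.82 ± 0.051) fell too. VLDLR had 869.6, 934 and 878 normalised reads with MI-503 and 2119.5, 2058 and 2027 with DMSO (-1.21 ± 0.043).

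The serine and one-carbon enzymes all fell in OCI-AML3, with a median of -2.02. PHGDH had 1088, 1292 and 1246 normalised reads with MI-503 and 13986, 12689 and 13152 with DMSO (-3.46 ± 0.057, adjusted p = 3.23e-13). PSAT1 had 5013, 4929.5 and 4753 with MI-503 and 32617, 30842 and 31878 with DMSO (-2.70 ± 0.03, adjusted p = 7.36e-14). Both groups were far apart, and ALDH1L2 (-3.12 ± 0.049), MTHFD2 (-1.33 ± 0.026), PSPH (-1.23 ± 0.04) and SHMT2 (-0.93 ± 0.026) completed the list. Of the other enzymes ASNS averaged 3381 ± 104 normalised reads with MI-503 and 19805 ± 694 with DMSO (-2.55 ± 0.033). GPT2 had 1211, 1304 and 1326 with MI-503 and 5604, 5173 and 5212 with DMSO (-2.06 ± 0.044), and CBS had 7504, 7911 and 8109.9 with MI-503 and 15693, 14906 and 14830.5 with DMSO (-0.95 ± 0.034). CTH fell (-1.23 ± 0.062), whereas the enzymes of proline synthesis did not. PYCR1 did not pass (-0.06 ± 0.028, adjusted p = 0.0633). ALDH18A1 had 10319, 10394 and 10313 normalised reads with MI-503 and 9029, 8985 and 9051 with DMSO, a small rise (0.20 ± 0.024, adjusted p = 1.54e-05) that did not pass with the deposited factors (0.04, adjusted p = 0.96, over the alternatives 3.24e-09 to 0.96).

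All 8 transporters fell in OCI-AML3. SLC6A9 had 56.3, 66.5 and 47.2 normalised reads with MI-503 and 649, 605 and 630.3 with DMSO (-3.46 ± 0.11). SLC7A11 had 2116, 1980.5 and 1946 with MI-503 and 16587, 15265 and 16084 with DMSO (-2.99 ± 0.039, adjusted p = 1.13e-13), and SLC7A11-AS1 changed by -3.22. SLC7A5 had 7849, 7807 and 7946 with MI-503 and 26869.6, 25882 and 25717 with DMSO (-1.73 ± 0.026). The groups were apart for each, and SLC7A1 (-1.22 ± 0.032), SLC1A5 (-1.08 ± 0.033), SLC3A2 (-1.03 ± 0.033) and SLC38A2 (-0.89 ± 0.031) also fell. SLC1A4 had 8252, 7908 and 7999 normalised reads with MI-503 and 14459, 14351 and 14346 with DMSO (-0.84 ± 0.026). Of the regulators ATF4 had 25484, 26156 and 26365 with MI-503 and 53105, 51975 and 52335 with DMSO, a fall without overlap (-1.01 ± 0.024, adjusted p = 8.86e-12). TRIB3 had 3292, 3499 and 3578 with MI-503 and 9443, 9316 and 8699 with DMSO (-1.40 ± 0.04). ATF3 had 407, 477 and 464 with MI-503 and 721, 757 and 694 with DMSO (-0.69 ± 0.067). The 6 regulators other than NUPR1 thus fell, with JDP2 at -1.74 ± 0.04, DDIT3 at -0.84 ± 0.035 and ATF5 at -0.70 ± 0.066.

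**Figure D4:**
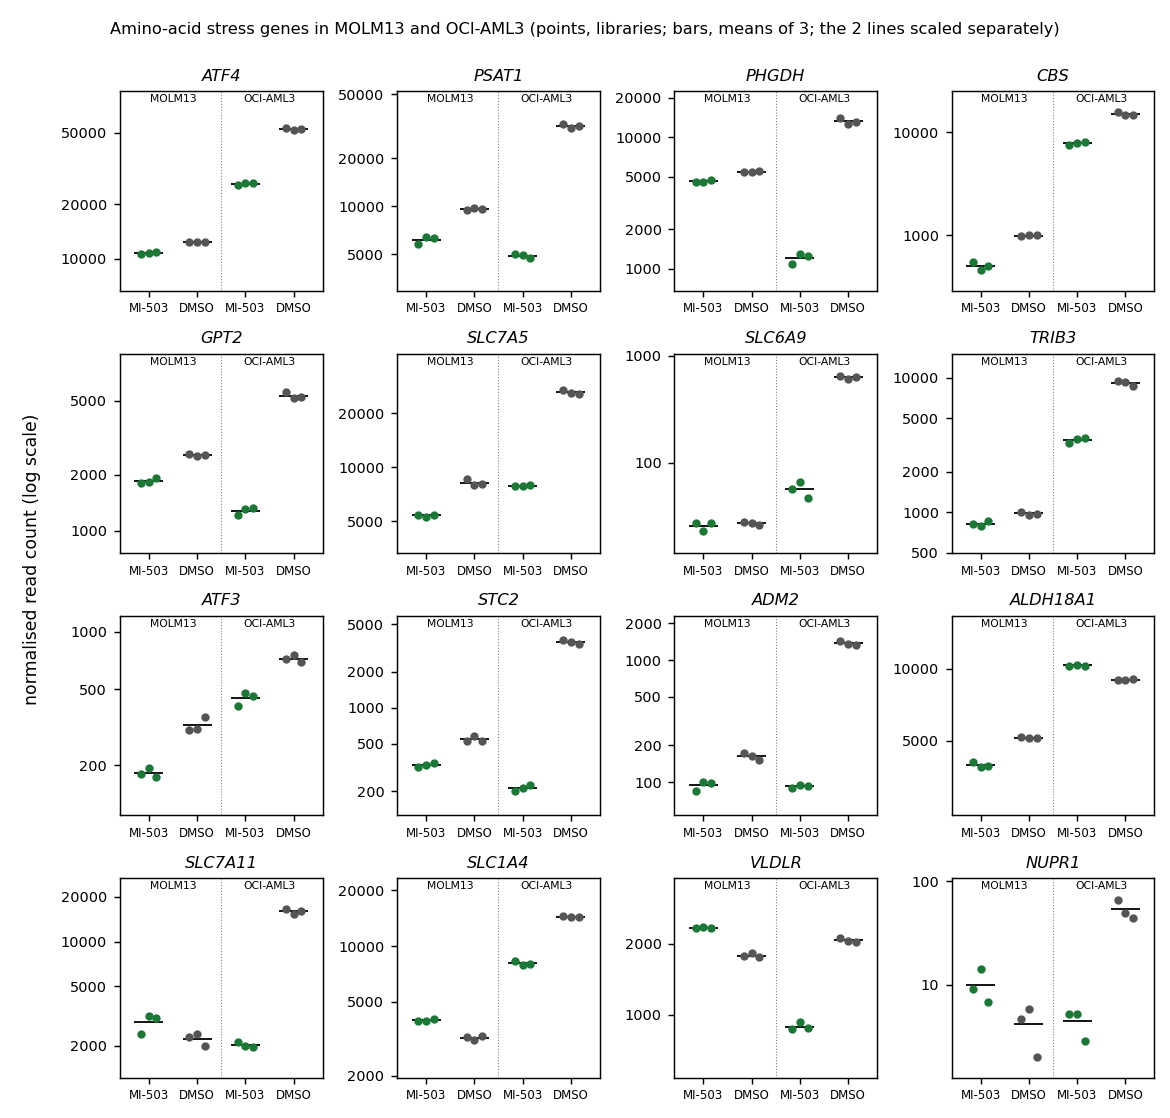
Normalised reads (log axes that differ between panels) of 16 of the genes in each MOLM13 and OCI-AML3 library, MI-503 left of DMSO in each line, with bars at the mean of 3; the lines were scaled separately, so only values within a line compare. The gap between MI-503 and DMSO is narrow in MOLM13 for most panels and wide in OCI-AML3, for example for PHGDH (-0.23 in MOLM13 and -3.46 in OCI-AML3).

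Set side by side, the MI-503 effect was called lower in all 3 lines for 22 of the 32 genes tested in each, as it was for 7.22% of the 12635 genes tested in all 3 lines. Of these 32, 24 had their lowest change in OCI-AML3, 7 in MV411 and 1 in MOLM13, with an exposure of 3 days in MV411 and of 4 in the other lines. The line of the lowest change was not counted over all genes, with these or the deposited factors. Such counts are therefore no result about the 32 genes as a group. With the deposited factors 27 were called lower in all 3 lines (2.14% of all genes), and 26 had their lowest change in OCI-AML3, 3 in MV411 and 3 in MOLM13. Those lowest in MV411 include ATF3 (-2.62 in MV411, -0.83 in MOLM13 and -0.69 in OCI-AML3), ATF5 (-2.21, -0.41 and -0.70 in that order) and TRIB3 (-2.71, -0.25 and -1.40). Across the 32 genes the changes in MV411 and OCI-AML3 had Pearson's r of 0.552 and Spearman's rho of 0.468, those in MOLM13 and MV411 0.468 and 0.481, and those in MOLM13 and OCI-AML3 0.261 and 0.205. The genes are not independent replicates, and no difference between lines was tested, since their tables were normalised separately.

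Without drug, the level of these genes differed between the lines. As RPM of the DMSO libraries, 19 of the 33 were highest in OCI-AML3, 9 in MV411 and 5 in MOLM13. The highest line was not counted over all genes, so these counts are no result about the 33 as a group. The lines were deposited separately, OCI-AML3 was sequenced more deeply, and no difference between lines was tested. CBS stood at 245 to 259 RPM in OCI-AML3, 38.4 to 39.1 in MOLM13 and 17.2 to 19.1 in MV411, and CHAC1 at 55.5 to 59 RPM in OCI-AML3, 5.3 to 6.7 in MOLM13 and 7.46 to 8.1 in MV411. ATF4 (856 to 877, 485 to 490.0 and 402 to 416 RPM) and ASNS (319 to 340.0, 133 to 136 and 105 to 107 RPM) stood in the same order of lines as CBS. ATF5 was highest in MV411, at 266 to 285 RPM against 28.6 to 31.2 in MOLM13 and 27 to 29.6 in OCI-AML3. DDIT4 was lowest in MV411, at 40.1 to 45.7 RPM against 388 to 419 in MOLM13 and 293 to 301 in OCI-AML3. The ranges of DMSO libraries of different lines do not overlap for any of these 6 except where ATF5 in MOLM13 and OCI-AML3 meet. Such overlap was not counted over all genes, so this too is no result about these genes.

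Other genes of the pathway from lists chosen by function gave the following counts, to be read against the shares of all tested genes that fell and rose, which were 40.1% and 39.3% with the combination, 37.3% and 37.7% with AC220, 30.8% and 29.8% with MI-503 in MV411, 29.9% and 29.9% in MOLM13 and 32.8% and 32.9% in OCI-AML3. With the deposited factors those shares were 76.8% and 6.74% in MOLM13 and 6.82% and 3.85% in OCI-AML3. Of 12 cytosolic transfer-RNA synthetases known as ATF4 targets, 11 fell with the combination, 11 with AC220 and 10 with MI-503 in MV411, and with MI-503 10 fell in MOLM13 and 12 in OCI-AML3, with none rising (12 and 10 with the deposited factors). IARS (isoleucyl) changed by -1.97 ± 0.049 with the combination, -1.46 ± 0.049 with AC220 and -0.66 ± 0.049 with MI-503, and AARS (alanyl) by -1.76 ± 0.055, -2.24 ± 0.055 and -0.75 ± 0.055. In OCI-AML3 IARS changed by -0.82 ± 0.025 and AARS by -1.27 ± 0.027. Of the 7 other synthetases tested, 6 fell and 1 rose with the combination, 5 and 2 with AC220, and 3 and 1 with MI-503 in MV411. With MI-503 4 fell and 1 rose in MOLM13, and 3 fell and 2 rose in OCI-AML3 (7 and none in MOLM13 and none of either in OCI-AML3 with the deposited factors). FARSB, a subunit of the phenylalanyl enzyme, changed by -1.50, -1.05 and -0.21 with the combination, AC220 and MI-503 in MV411, and QARS, the glutaminyl enzyme, rose by 0.82, 0.73 and 0.50. With MI-503 the median change of the 12 and of the 7 was -1.20 and 0.03 in OCI-AML3, -0.19 and -0.17 in MOLM13 and -0.58 and -0.06 in MV411. In MV411 these medians were -0.90 and -0.39 with the combination and -0.77 and -0.44 with AC220. The differences between the 2 lists were not tested.

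Of 14 genes of the other arms of the unfolded protein response, all 14 fell with each treatment in MV411, with medians of -0.97 for the combination, -0.93 for AC220 and -0.68 for MI-503. SDF2L1, a protein of the endoplasmic reticulum, changed by -1.74 with the combination, -1.63 with AC220 and -0.82 with MI-503, and DNAJB9, a chaperone cofactor there, by -1.17, -0.70 and -1.62. In MOLM13 8 rose, EDEM1 by 0.47, and 2 fell with MI-503, but with the deposited factors none rose and 13 fell. In OCI-AML3 4 rose, SDF2L1 by 0.49, and 7 fell, while with the deposited factors none rose and 2 fell. Of the 11 other serine, glycine and folate enzymes tested, 8 fell with the combination and with AC220 and 4 with MI-503 in MV411. TYMS, the thymidylate synthase of dividing cells, changed by -3.06 ± 0.062 with the combination, -3.13 ± 0.062 with AC220 and -0.16 ± 0.062 with MI-503, and the mitochondrial serine carrier SFXN1 by -2.22, -1.65 and -0.72. AMT, of the glycine cleavage system, rose by 1.76, 1.56 and 0.97. With MI-503 5 of the 11 fell and 2 rose in MOLM13, and 5 fell and 4 rose in OCI-AML3 (10 fell and none rose in MOLM13 and 1 fell and none rose in OCI-AML3 with the deposited factors).

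Upstream of ATF4, the message of the amino-acid-sensing kinase EIF2AK4 (GCN2) rose in MV411, by 0.76 ± 0.049 with the combination, 0.51 ± 0.049 with AC220 and 0.59 ± 0.049 with MI-503. The eIF2α gene EIF2S1 changed by -1.19, -0.93 and -0.45 in that order, and EIF4EBP1, an ATF4 target that restrains translation, changed by -1.47, -1.53 and -0.55. Of this list of 8, 5 fell and 2 rose with the combination, 6 and 1 with AC220, 4 and 2 with MI-503 in MV411. With MI-503 3 fell and 3 rose in MOLM13, and 2 and 4 in OCI-AML3, where EIF4EBP1 changed by -0.95 ± 0.045 (7 fell and none rose in MOLM13 and 1 fell and none rose in OCI-AML3 with the deposited factors). PPP1R15A, which directs the eIF2α phosphatase, rose with the combination (0.51 ± 0.069). Of the 4 C/EBP factors that pair with ATF4, CEBPB rose with the combination (0.70 ± 0.068) and fell with AC220 (-0.59 ± 0.068), CEBPD fell with AC220 (-0.82 ± 0.13), and CEBPG fell with each treatment (-0.51, -0.43 and -0.30). All 4 rose with MI-503 in MOLM13, CEBPD by 0.69, but none rose and 1 fell with the deposited factors. In OCI-AML3 3 fell, among them CEBPG (-0.75), and 1 rose, against 1 that fell and none that rose with the deposited factors. MYC, which shares many targets with ATF4, changed by -2.44 ± 0.042 with the combination, -1.42 ± 0.042 with AC220 and -0.88 ± 0.042 with MI-503 in MV411, and with MI-503 by -0.18 ± 0.028 in MOLM13 and 0.11 ± 0.04 in OCI-AML3. FLT3, the target of AC220, changed by -0.30 with the combination, 0.79 with AC220 and -0.85 with MI-503, and with MI-503 by -0.61 in MOLM13 and -1.07 in OCI-AML3. MEN1, which encodes menin, changed by -0.38, -0.35 and -0.12 in MV411, the last of which did not pass. The part of MYC in the changes above was not tested.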

How the data were processed

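Polyadenylated RNA of 24 libraries was sequenced as paired 50-base reads, with ERCC spike-in RNA added in proportion to cell number, per the labels' protocols. The submitters' processing notes name DESeq version 2 and the build hg38. The aligner, the counting tool and the annotation are not given in the sources used here. Each table holds a normalised signal per gene, which the authors made by dividing whole reads by 1 factor per library: all values came out whole within 0.001 reads once multiplied back. The deposited tables are named as ERCC-normalised. In MV411 the deposited factors equal median-of-ratios factors computed from all genes, whereas those of MOLM13 and OCI-AML3 differ from them by up to 26.4% and 23.0%. The deposited MV411 scale is thus one computed from genes. Whether the deposited scales of MOLM13 and OCI-AML3 are those of the spike-in was not settled.

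Reads were recovered, divided by median-of-ratios factors of each table, filtered at a value of 10 in at least 3 libraries and tested on log2(value + 1) with limma 3.58.1 (trend, R 4.3.3), with all 12 MV411 libraries in 1 fit and Benjamini-Hochberg adjustment over all tested genes. The log2 scale was chosen in place of a count model because the deposited values are normalised, although whole reads could be recovered from them. Count models on the recovered reads, edgeR 4.0.16 and DESeq2 1.42.0, were run as alternatives. Further alternatives were other scalings, pseudocounts (0.5 and 8), filters, the removal of each library and a replicate block. The 33 genes and the other lists were chosen with earlier results of these data known. Values in every library are given for ATF4, for the 2 genes of each function with the largest change in the combination against DMSO, for genes called in opposite directions and for the 3 largest interactions. From each other list at most 2 genes a direction, those with the largest changes against DMSO, are named. Sequences and positions are from RefSeq on GRCh38.p14.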

Additional observations from a re-analysis of the deposited data

Results flagged for a closer look

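MI-503 moved 4 of the genes in opposite directions in different lines, with every MI-503 library on one side of the DMSO mean in each line. These differences between lines were not tested, and the exposure was 3 days in MV411 and 4 days in the other lines. The effect on ALDH18A1 was lower by 0.40 on the log2 scale in MV411 than in OCI-AML3 (-0.4013) and by 0.58 in MOLM13 than in OCI-AML3 (-0.5766). For the cystine carrier SLC7A11 the effect in MV411 minus that in MOLM13 was -1.1606, and the effect in MOLM13 minus that in OCI-AML3 was 3.3477. For SLC1A4 the same differences were -0.8882 and 1.1435, and for VLDLR -1.138 and 1.5998. With the deposited factors the changes of SLC7A11, SLC1A4 and VLDLR in MOLM13 were negative too, and that of ALDH18A1 in OCI-AML3 did not pass.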

How the results depend on the processing

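Over all alternatives run, the number of the 33 genes called stayed within 1.5 times the reported one in each comparison, at 28 to 31 for the combination, 32 to 33 for AC220 and 31 to 32 for MI-503 against DMSO in MV411, 26 to 30 in MOLM13 and 31 to 32 in OCI-AML3. It was 19 to 23 for the combination against AC220, 26 to 28 against MI-503, 28 to 30 for AC220 against MI-503 and 29 to 31 for the interaction. In MV411 the deposited factors equal those used here, so that alternative, counted among the others, repeated the reported fit and could not change a call. With the deposited factors 4 genes turned to negative changes in MOLM13, SLC7A11 (-0.1716), SLC1A4 (-0.2258), JDP2 (-0.474) and VLDLR (-0.1419), which follows from the shift of -0.53 that these factors give to all genes. The median change of the 33 genes between the combination and AC220 lay near 0 and ranged from -0.0914 to 0.0317 as single libraries were left out. Of the other values of single genes, 5344 kept their side of the threshold, 43 lost and 23 gained a call, and the causes were not tested. Among the 5344 a called change kept its direction, but a change that passed in neither fit could turn. SLC6A9 in MOLM13 did so, at -0.08 as reported and up to 0.0032 over the alternatives. Libraries with the same replicate number correlated at -0.0814 to 0.1206 in MV411, -0.0067 to 0.0698 in MOLM13 and -0.0497 to 0.0378 in OCI-AML3 as deviations from their group means. Libraries of different groups with unlike numbers correlated at -0.1196 to 0.086, -0.1022 to 0.0502 and -0.0495 to 0.0849 in that order. These ranges overlap, but with 3 libraries a group they cannot show whether samples were handled in matched sets. With the replicate block the counts were 30, 33, 32, 21, 27, 30 and 30 in MV411 (combination, AC220 and MI-503 against DMSO, combination against AC220 and against MI-503, AC220 against MI-503, interaction), 27 in MOLM13 and 32 in OCI-AML3, the same numbers as without it. Depth limits STC2, NUPR1 and SLC6A9 most, whose lowest MV411 libraries held 1, 2 and 5 reads.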
